A study of Mus musculus with 4 samples.

Results

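Cholesterol synthesis, efflux and lipoprotein genes were followed in primary astrocytes, the glia that support neurons, cultured from wild-type (WT) mice and from mice without CD38 (CD38 KO), a cell-surface enzyme that consumes NAD+. The 33 genes were chosen by name among the 55467 genes listed in each library. They comprise 18 enzymes of synthesis, 4 genes of sterol sensing and transport, and 11 genes of efflux, esterification and lipoproteins. All 33 were found, and 32 reached the mean of 1 FPKM (fragments per kilobase of transcript, scaled to the mapped fragments of the library) needed for testing. The exception was Apod.

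RNA of the cultured cells was sequenced in 2 WT and 2 CD38 KO libraries, which were stranded and made with polyA selection. Cells came from the cortex of pups 1 to 3 days old, digested with dispase, and spent 14 days in flasks with 10% serum. Shaking for 12 h removed loose cells, and what stayed attached was replated and collected 5 days later. No treatment separated the groups, and both shared the serum. The labels give neither the strain nor the deleted exons, so an effect of strain and one of the missing Cd38 cannot be told apart. Nor do they tell whether replicates came from separate animals or dishes, so that p-values cover the spread of these libraries alone, possibly a technical one. The study is about synapse formation and the role of astrocyte CD38 in it, and the comparison here is which cholesterol transcripts differ without CD38.

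Within the brain, astrocytes make cholesterol from acetyl-CoA through mevalonate, squalene and lanosterol. When membrane sterol is low, SCAP carries the transcription factor SREBP-2 out of the endoplasmic reticulum to be cut and to switch on these enzymes, and INSIG proteins hold it back when sterol is plentiful. When oxysterols accumulate, liver X receptors (LXR) raise the exporters ABCA1 and ABCG1, which load cholesterol onto apolipoprotein E particles that neurons take up.

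The promoters of the synthesis enzymes share a feature that can be read in their sequence. SREBP proteins act at promoters together with the factor NF-Y, which binds the CCAAT box. RefSeq promoters (GRCm38.p6) were matched for 27 of the 33 genes, 15 of them synthesis enzymes. In the 250 bases before the start, CCAAT was found on either strand in 14 of these 15 enzymes, Acat2 being the exception. It was found in 2 of 3 sterol sensing genes, in 4 of 9 genes of efflux and lipoproteins, and in 37.5% of all 27025 genes with a promoter in the table. A gene was counted when any of its promoters held CCAAT. Of the 13 enzymes with 1 promoter, 12 held it. In Dhcr7 only the most downstream promoter held it, and in Pmvk only the more upstream. Exons of coding genes were left in these windows for the counts, among the members as among all genes. Such exons covered all 250 bases in Tm7sf2 and in that promoter of Dhcr7, and 214 bases in Msmo1. The letters TCACNCCAC, a form of the sterol regulatory element, were searched on both strands too, and only Hmgcs1 among the 27 members held them, against 1.22% of all genes. In Hmgcs1 the matches to the 2 motifs do not overlap. A match is a description of these letters and not a measured site.

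Hmgcs1, Mvk, Mvd and Ebp are shown as enzymes whose transcripts passed no test below, and Lcat as a gene that fell. Capitals mark CCAAT or its reverse complement and, in Hmgcs1, the sterol element. Each stretch reads 5′ to 3′ on the gene's strand, ends just before the RefSeq start and leaves out exons of neighbouring coding genes. The windows lie at chr13:119690101-119690350 (plus strand), chr5:114444061-114444268 (plus), chr8:122443423-122443672 (minus), chrX:8193513-8193762 (minus) and chr8:105943403-105943589 (minus).
Hmgcs1: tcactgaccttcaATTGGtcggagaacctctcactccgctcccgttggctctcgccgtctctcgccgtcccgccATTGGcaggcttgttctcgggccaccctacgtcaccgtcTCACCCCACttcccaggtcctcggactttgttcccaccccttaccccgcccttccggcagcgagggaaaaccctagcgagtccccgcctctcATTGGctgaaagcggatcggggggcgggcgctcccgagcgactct
Mvk: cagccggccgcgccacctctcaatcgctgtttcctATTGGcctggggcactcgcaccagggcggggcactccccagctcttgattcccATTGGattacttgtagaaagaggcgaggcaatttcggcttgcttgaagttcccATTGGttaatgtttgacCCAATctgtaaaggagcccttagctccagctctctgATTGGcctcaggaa
Mvd: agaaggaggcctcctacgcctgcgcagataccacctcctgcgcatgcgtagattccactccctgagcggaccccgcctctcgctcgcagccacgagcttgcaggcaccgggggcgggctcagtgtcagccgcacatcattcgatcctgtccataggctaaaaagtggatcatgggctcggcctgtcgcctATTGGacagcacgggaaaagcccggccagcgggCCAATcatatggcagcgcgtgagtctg
Ebp: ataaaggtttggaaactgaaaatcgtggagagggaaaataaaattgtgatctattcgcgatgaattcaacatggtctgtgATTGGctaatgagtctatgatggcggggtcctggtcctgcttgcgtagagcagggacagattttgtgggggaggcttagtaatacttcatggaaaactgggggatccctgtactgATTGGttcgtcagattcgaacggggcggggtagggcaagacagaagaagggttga
Lcat: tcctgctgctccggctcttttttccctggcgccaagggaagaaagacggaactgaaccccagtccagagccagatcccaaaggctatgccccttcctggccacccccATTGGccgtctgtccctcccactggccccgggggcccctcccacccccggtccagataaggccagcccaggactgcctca
Mvk held 5 CCAAT matches in its 250 bases, Hmgcs1 3, Mvd and Ebp 2 each and Lcat 1. Of the enzymes not shown, Msmo1 and Hsd17b7 held 3 and Idi1, Nsdhl and Dhcr7 2. Pmvk, Lss, Cyp51, Tm7sf2 and Sc5d held 1 and Acat2 none. The share of all promoters with 3 or more was 2.79%.

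The libraries held an estimated 26900000 and 28200000 fragments for WT and 28800000 and 29000000 for CD38 KO. The targeted gene Cd38 had 3.13 and 3.45 FPKM in the WT libraries but 0.0222 FPKM in either CD38 KO library. Astrocyte markers were abundant in all libraries, with Gfap at 1198 to 1390 FPKM. Summed over the list of 12, they were 4933 to 4990 FPKM in WT and 4051 to 4131 in CD38 KO, with 2 of 11 tested markers higher and 7 lower in CD38 KO. Markers of microglia and macrophages moved most. All 18 tested of the 20 listed were higher in CD38 KO, and their sum rose from between 178 and 193.5 FPKM in WT to between 999 and 1115 in CD38 KO. P2ry12 and Mrc1 of this list were below 1 FPKM in all 4 libraries.

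**Figure D1:**
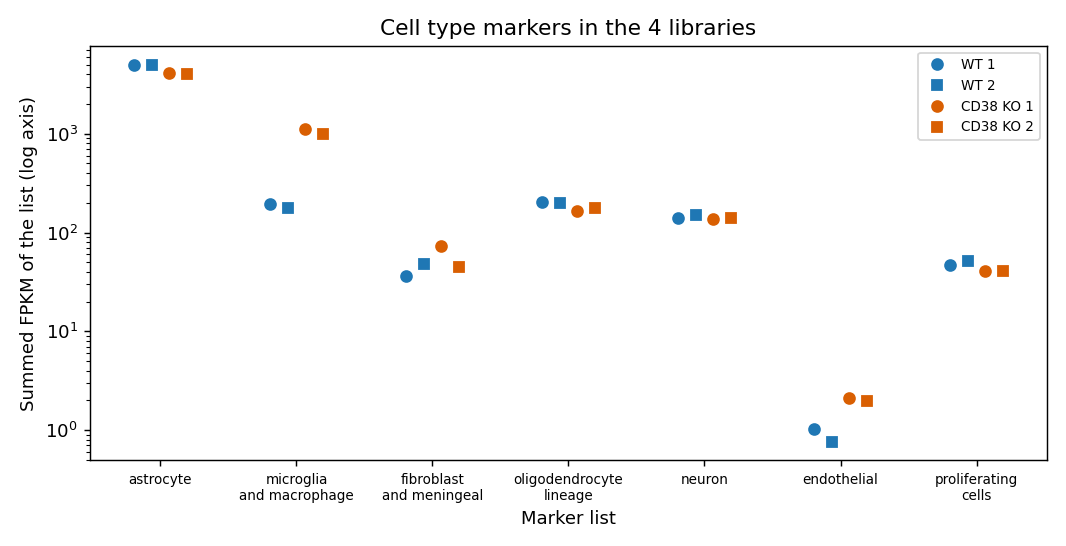
Summed FPKM (log axis) of 7 marker lists in each library, WT in blue and CD38 KO in orange, replicate 1 as circles and replicate 2 as squares. The microglia and macrophage sum lies at 178 to 193.5 FPKM in WT and 999 to 1115 in CD38 KO, while the astrocyte sum lies at 4933 to 4990 in WT and 4051 to 4131 in CD38 KO.

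Apart from 3 genes, no member passed the test between the genotypes. Abcg1 and Dhcr7 were higher in CD38 KO and Lcat was lower, 3 of 32 tested or 9.38%. A gene was called when limma on log2(FPKM + 1), adjusted by Benjamini-Hochberg over all 13064 tested genes, gave a p under 0.05. Of all tested genes 14.4% were called, 8.00% higher and 6.35% lower. The members' share is thus below the background, and 3 genes are too few to read a difference from it. The median log2 change of the 32 members was 0.00, with 16 above and 16 below 0, and that of all tested genes was also 0.00. Both libraries of one genotype lay above both of the other in 18 of the 32 members, against 59.9% of all tested genes.

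**Figure D2:**
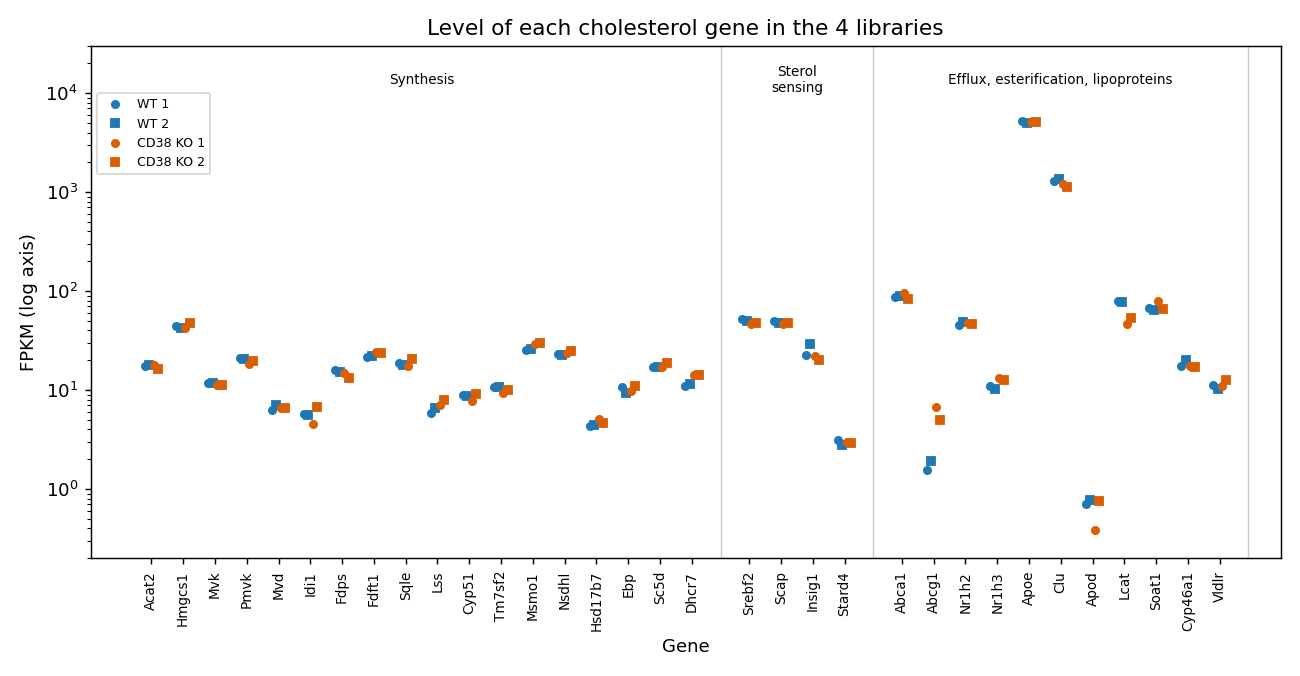
FPKM (log axis) of the 33 members in each library, WT in blue and CD38 KO in orange, replicate 1 as circles and replicate 2 as squares, in pathway order. Levels run from below 1 FPKM for Apod to 5284 for Apoe, and the genotypes stand visibly apart at Abcg1 and Lcat.

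The enzymes of synthesis were expressed at every step, and 17 of 18 passed no test. The share called was 5.56%, beside 14.4% of all tested genes, and 18 genes are too few to read a difference from it. The summed level of the enzymes was 280 and 277 FPKM in WT and 281 and 297 in CD38 KO, a ratio of 1.04. Levels ran from Hsd17b7 at 4.30, 4.46, 5.16 and 4.66 FPKM (WT 1, WT 2, CD38 KO 1, CD38 KO 2, the order kept below), to Hmgcs1, which exceeded it 8.22 to 10.3 times within a library. Hmgcs1, which makes HMG-CoA at the entry to the mevalonate pathway, was at 44.3, 42.1, 42.4 and 48.1 FPKM. The CD38 KO libraries lay around the WT values, with a log2 change of 0.06 (95% interval -0.12 to 0.24). In all 18 enzymes the 95% interval of the log2 change lay between -0.5 and 0.5, as it did in 76.2% of all tested genes. A change of less than that size is not excluded by missing the threshold.

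Enzymes that lead from acetyl-CoA to farnesyl diphosphate lay at or slightly below the WT level. Of these 7 genes, 6 had a log2 change below 0 and the median was -0.03. None was called by limma, beside 14.4% of all tested genes. At an unadjusted p under 0.05 the number was 0, beside 30.3% of all tested genes. Acat2, the cytosolic thiolase that joins acetyl groups, was at 17.3, 17.8, 17.9 and 16.4 FPKM. The mevalonate kinase Mvk was at 11.7 in both WT libraries and 11.2 in both CD38 KO libraries, a log2 change of -0.06 whose interval holds 0 (-0.20 to 0.09). Its groups did not overlap, and its spread within each genotype was among the smallest of the members.

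Pmvk, the next kinase, was at 21.3, 20.6, 18.2 and 19.7 FPKM, with both CD38 KO libraries below both WT libraries (log2 change -0.14, SE 0.06, limma adjusted p = 0.191). The decarboxylase Mvd was at 6.33, 7.09, 6.55 and 6.62 FPKM, with overlapping groups. It is uncertain, since Gm20388 lies over it on the opposite strand at 8.60 to 12.1 FPKM and the use of strand in counting is not known here. Farnesyl diphosphate synthase, Fdps, was at 15.8, 15.1, 14.9 and 13.2 FPKM, and its groups barely separated. The isomerase Idi1 varied most between replicates of one genotype, at 5.79 and 5.57 FPKM in WT and 4.59 and 6.80 in CD38 KO. The interval of its log2 change is the widest of the enzymes, -0.42 to 0.39.

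Enzymes that turn farnesyl diphosphate into cholesterol leaned the other way. Of these 11 genes 9 had a log2 change above 0, the median was 0.09 and 1 was called (9.09%, beside 14.4% of all tested genes). This split of the enzymes was made after their values were seen and carries no test. Both CD38 KO libraries were above both WT libraries in 7 of the 11 and below in 1, beside the 59.9% of all genes that separated in either direction. The 7 include Fdft1 and the 1 below is Tm7sf2, both called uncertain further down because another gene overlaps each. Without CD38 KO 1 the median over all 18 enzymes was 0.12, and without CD38 KO 2 it was -0.03, beside 0.04 with all libraries. Leaving out 1 library thus turned the sign of the median over all 18. Among the 11 alone, the middle change without CD38 KO 2 was that of Nsdhl, 0.06, and stayed above 0.

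Dhcr7 (ENSMUSG00000058454, GRCm38 chromosome 7, 143823145 to 143848410), the reductase that closes the pathway by making cholesterol from its dehydro precursor, was the enzyme that passed. It was at 11.1 and 11.5 FPKM in WT against 14.2 in both CD38 KO libraries. The groups did not overlap, and the rise was 1.26-fold (log2 change 0.31, SE 0.06, limma adjusted p = 0.0247, n = 2 and 2). The call was lost whichever library was left out (highest adjusted p 0.135) and also with no filter on low genes (0.0643).

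The methyl sterol oxidase Msmo1 was at 25.4 and 26.3 FPKM in WT against 29.4 and 29.8 in CD38 KO (log2 change 0.19, SE 0.05, adjusted p = 0.0612 by limma). Its groups were apart but it missed the threshold, and it stayed uncalled in every alternative. Lss, which closes squalene epoxide into lanosterol, was at 5.86, 6.65, 6.98 and 7.99 FPKM (log2 change 0.23, interval -0.02 to 0.47). Here the step between the replicates of each genotype was about as large as the step between genotypes.

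Squalene synthase, Fdft1, was at 21.6, 22.2, 24.2 and 23.8 FPKM. Its gene overlaps Ctsb on the opposite strand, which was at 1010, 973, 1150 and 1120 FPKM, and how strand was used in counting is not given in the sources used here. Reads of the 2 genes could therefore be mixed, and Fdft1 is uncertain. The sterol reductase Tm7sf2, at 10.8, 10.8, 9.41 and 10.1 FPKM, shares its strand and part of its locus with Vps51 (15.9, 15.5, 13.3 and 13.1 FPKM) and is uncertain too. Both genes of that locus were lower in both CD38 KO libraries.

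Squalene epoxidase, Sqle, a control point of the pathway, was at 18.7, 18.0, 17.5 and 20.3 FPKM, with CD38 KO values on both sides of WT. Nsdhl, the decarboxylase of sterol methyl groups, was at 23.2, 22.4, 23.7 and 25.02 FPKM and the desaturase Sc5d at 17.0, 17.1, 17.2 and 18.8 FPKM. In these 2 genes the CD38 KO libraries were higher by less than their intervals allow to be told from 0. The demethylase Cyp51 (7.66 to 9.17 FPKM) and the isomerase Ebp (9.38 to 10.99 FPKM) overlapped between genotypes. Cyp51 shares its locus with Akap9 on the opposite strand (6.44 to 7.62 FPKM) and is uncertain as well.

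**Figure D3:**
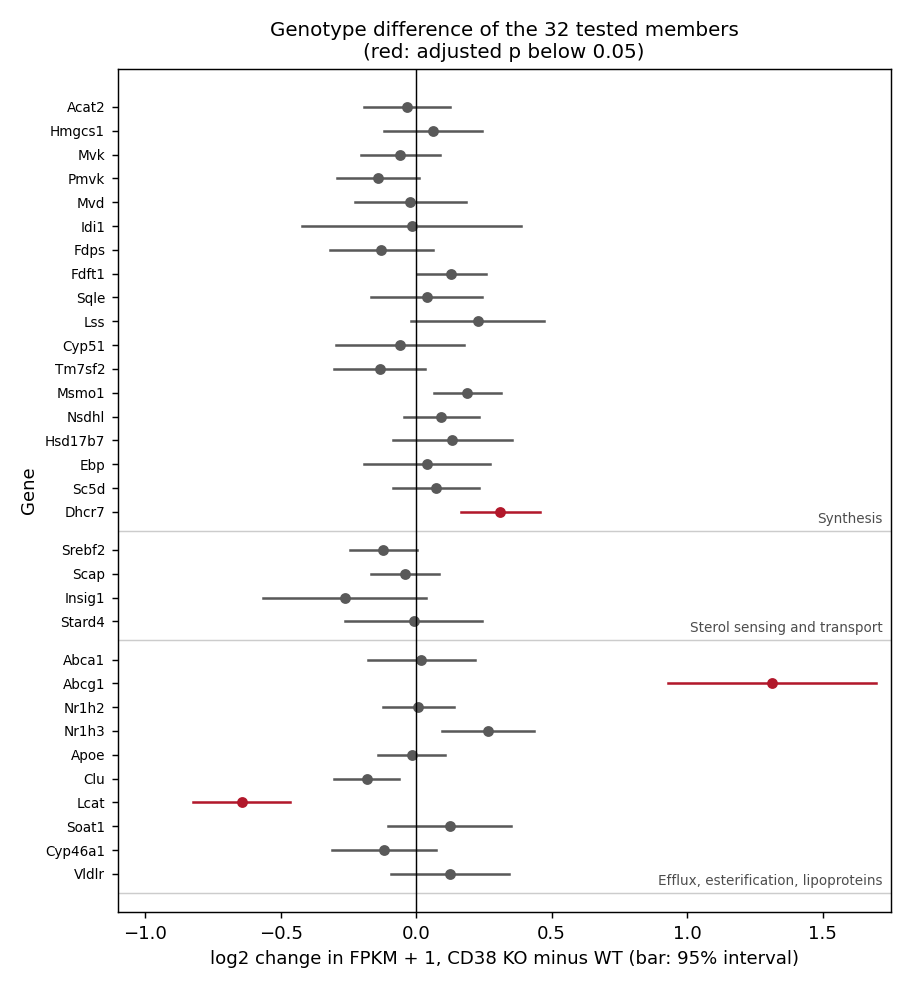
Log2 change in FPKM + 1 between CD38 KO and WT for the 32 tested members in pathway order, with limma's 95% interval as a bar, called genes in red. Only Dhcr7, Abcg1 and Lcat are red, and the synthesis enzymes lie between -0.14 and 0.31.

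None of the 4 genes that sense and move sterol was called by limma, beside 14.4% of all tested genes. At an unadjusted p under 0.05 the number was also 0, beside 30.3% of all tested genes. Srebf2, which encodes SREBP-2, was at 52.7 and 50.2 FPKM in WT against 46.5 and 48.0 in CD38 KO (log2 change -0.12, interval -0.24 to 0.00). Its escort Scap was at 49.8, 47.4, 46.3 and 48.1 FPKM, with overlapping groups. Insig1, the retention protein and itself an SREBP target, was at 22.5 and 29.0 FPKM in WT against 22.0 and 20.3 in CD38 KO. Its WT libraries differed from each other by more than WT 1 differed from CD38 KO, and its interval reached from -0.56 to 0.04. Stard4, a carrier of sterol between membranes, was the least abundant of these genes, at 3.15, 2.79, 2.96 and 2.92 FPKM. All 4 log2 changes were below 0, with a median of -0.08 (without WT 1, that of Stard4 was 0.05).

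Among the genes of efflux, esterification and lipoproteins, 1 of 10 tested was higher and 1 lower, beside the 14.4% of all tested genes that were called. These genes are too few to read a difference from that share. Abcg1 (ENSMUSG00000024030, chromosome 17, 31057675 to 31117988), the exporter that hands cholesterol to lipoprotein particles, was at 1.55 and 1.91 FPKM in WT against 6.70 and 4.95 in CD38 KO. The lower CD38 KO library was above the higher WT library by more than the spread within either genotype. The increase was 3.37-fold in FPKM, from 1.73 ± 0.252 to 5.83 ± 1.24 (SD, n = 2 each), with a log2 change of 1.31 (SE 0.15, limma adjusted p = 0.00518). It was the largest change of the 32 members and was called in all 4 fits without 1 library (log2 change 1.13 to 1.499). Without a filter on low genes the call ended (0.0649).

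Beside Abcg1, all 18 tested markers of microglia and macrophages, cells that also use Abcg1, were higher in CD38 KO, and their summed level was 5.69 times that of WT. Their part in the result was not tested. In bulk RNA, fewer cells of a type and less RNA per cell cannot be told apart, and neither can more cells and more RNA per cell.

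Abca1, the exporter that loads lipid-poor apolipoproteins and the other classic LXR target, was far more abundant and passed no test. It was at 86.1, 89.8, 96.3 and 82.5 FPKM, so that the CD38 KO libraries lay on both sides of WT (log2 change 0.02, interval -0.18 to 0.22). Per length, Abca1 exceeded Abcg1 by 55.4 and 47.0 times in WT and by 14.4 and 16.7 times in CD38 KO. The receptors themselves were unequal in level. Nr1h2, which encodes LXR beta, was at 45.3, 48.2, 47.7 and 46.3 FPKM. Nr1h3, which encodes LXR alpha and is the form prominent in macrophages, was at 10.9 and 10.2 FPKM in WT against 13.3 and 12.5 in CD38 KO. Its groups were apart, but it missed the threshold (log2 change 0.27, SE 0.07, limma adjusted p = 0.0593) and missed it in every alternative.

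Apoe, the main apolipoprotein of brain lipoproteins, was the most abundant member and among the 5 most abundant of all genes in each library. It was at 5284, 5018, 5065 and 5118 FPKM, which is 0.944% to 0.979% of all FPKM in a library. The CD38 KO libraries lay between the WT libraries, with a log2 change of -0.02 (interval -0.14 to 0.11). Beside the rise of the microglia and macrophage markers, which belong to cells that also make Apoe, its level thus moved by less than the WT spread.

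Clu, which encodes clusterin, another abundant apolipoprotein of astrocytes, was at 1296 and 1352 FPKM in WT against 1196 and 1139 in CD38 KO. Both CD38 KO libraries were lower, by 0.18 on the log2 scale (SE 0.05), at a limma adjusted p of 0.0622. It passed under robust moderation alone (0.0456), and its adjusted p lay between 0.0456 and 0.294 in the alternatives. Astrocyte markers, summed, were 0.825 times the WT level beside it. Apod, an apolipoprotein of the lipocalin family made by oligodendrocytes and fibroblasts, was at 0.709 and 0.768 FPKM in WT against 0.387 and 0.753 in CD38 KO and was not tested.

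Lcat (ENSMUSG00000035237, chromosome 8, 105939551 to 105943382), the secreted enzyme that esterifies cholesterol on lipoproteins, was at 79.7 and 77.4 FPKM in WT against 46.7 and 53.5 in CD38 KO. These values stand for an estimated 2510, 2560, 1580 and 1820 fragments. The groups were far apart, and the level fell 1.57-fold (log2 change -0.64, SE 0.07, limma adjusted p = 0.00448, n = 2 and 2). Lcat was called in all 4 fits without 1 library (log2 change -0.74 to -0.55), but not without a filter on low genes (0.0561). Its antisense neighbour Gm16156 was at 0.560 to 1.11 FPKM.

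The summed astrocyte markers were 0.825 times the WT level beside the fall of Lcat. Of the 11 tested markers 7 were called lower and 2 higher, beside 14.4% of all tested genes called in either direction. Their part in the result was not tested. The log2 changes of the 11 tested markers ran from -1.22 for S100b to 0.33 for Slc1a2, which was not called, with a median of -0.32.

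Storage, hydroxylation and uptake genes passed no test, beside the 14.4% of all tested genes that were called. Soat1, which esterifies cholesterol inside cells, was at 68.0, 63.7, 78.6 and 65.6 FPKM, with CD38 KO 2 between the WT libraries. Cyp46a1, which hydroxylates cholesterol for export from the brain and is known as an enzyme of neurons, was at 17.6, 20.2, 17.5 and 17.0 FPKM. Neuronal markers stood beside it at widely unequal levels. Rbfox3, Snap25, Syt1 and Slc17a7 were below 1 FPKM in all libraries, and Gad1 was at 41.7 to 81.5 FPKM. Of the 9 listed neuronal markers 5 were tested, and 1 was called higher and 1 lower in CD38 KO, beside 14.4% of all tested genes. The log2 changes of these markers ran from -0.78 to 0.88. Vldlr, a receptor for apolipoprotein E particles, was at 11.2, 10.2, 10.9 and 12.6 FPKM, with overlapping groups.

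Further genes of the pathway were read from 3 fixed lists. Of 12 tested isoprenoid and sterol enzymes outside the 33, only Coq2 was called, beside 14.4% of all tested genes. Coq2, which attaches the isoprenoid tail of coenzyme Q, was at 26.6 and 24.7 FPKM in WT against 32.1 and 32.9 in CD38 KO (1.27-fold, limma adjusted p = 0.0188). Its call ended without WT 2, CD38 KO 1 or CD38 KO 2 (up to 0.116). Of the other enzymes of smallest p, Fnta and Fntb, the subunits of farnesyltransferase, had log2 changes of -0.09 and -0.14 and were not called. Fntb shares strand and locus with Churc1 (39.9 to 49.4 FPKM) and is uncertain. The median of these 12 was -0.02.

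Of 22 tested genes of SREBP control and sterol movement, 3 were higher and 2 lower, 22.7% beside the 14.4% of all genes. The list was chosen with earlier results known, and its genes are too few to read a difference from that share. Srebf1, which encodes the SREBP form that drives fatty acid synthesis and is itself an LXR target, fell from 217 and 228 FPKM to 144 and 129. The groups were far apart (1.63-fold, log2 change -0.70, SE 0.06, limma adjusted p = 0.00208), and the call held in all 4 fits without 1 library. Rai1 overlaps Srebf1 on the opposite strand, at 11.6 to 12.8 FPKM. Per length, Srebf1 exceeded Srebf2 by 4.12 and 4.54 times in WT and by 3.09 and 2.69 times in CD38 KO. Rnf145, a ubiquitin ligase that responds to LXR, was lower too, at 31.5 and 32.7 FPKM in WT and 23.6 and 25.5 in CD38 KO (adjusted p = 0.0142 by limma). Its call ended in each fit without 1 library (up to 0.0961).

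The 3 higher genes of this list handle cholesterol esters and free cholesterol. Lipa, the lysosomal acid lipase, was at 27.2 and 26.1 FPKM in WT against 34.0 and 34.6 in CD38 KO (log2 change 0.35, adjusted p = 0.0095 by limma). Npc2, which carries cholesterol out of lysosomes, was at 66.4, 63.5, 76.9 and 77.7 FPKM (adjusted p = 0.0216). Nceh1, a cholesterol ester hydrolase of macrophages, was at 22.8, 20.5, 27.2 and 27.8 FPKM (adjusted p = 0.0279). In all 3 the groups were apart, and all 3 calls ended without WT 2, CD38 KO 1 or CD38 KO 2 (up to 0.147). The call of Npc2 also ended without WT 1. Those of Npc2 and Nceh1 ended without a trend in the moderation too (0.0698 and 0.0618), where Lipa kept its call.

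Of 17 tested further LXR targets, oxysterol enzymes and lipoprotein genes, 3 were higher and 2 lower, 29.4% beside the 14.4% of all genes. Here too the list was chosen with earlier results known, and its genes are too few to read a difference from the share of all genes. Pltp, which transfers phospholipid between lipoproteins, rose from 62.8 and 59.7 FPKM to 99.8 and 94.4 (1.58-fold, log2 change 0.66, SE 0.05, limma adjusted p = 0.00122). Pltp overlaps Ctsa on the opposite strand, which was at 97.4, 94.5, 112 and 110 FPKM, so its level is uncertain. Lpl, lipoprotein lipase, rose 4.26-fold from 1.60 and 1.13 FPKM to 6.21 and 5.42. Pltp and Lpl were called in all 4 fits without 1 library.

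Apoc1, an apolipoprotein of macrophages and astrocytes, rose 2.14-fold from 11.01 and 8.04 FPKM to 20.97 and 19.9 (limma adjusted p = 0.00743). Its call ended without CD38 KO 1 or CD38 KO 2 (0.0932 and 0.069). Lpcat3, an LXR target that remodels phospholipids, fell from 39.4 and 40.3 FPKM to 31.8 and 32.6, and is uncertain because Emg1 overlaps it on the opposite strand (35.5 to 40.7 FPKM). Cyp7b1, which hydroxylates oxysterols, fell from 17.7 and 18.4 to 13.4 and 14.1. Both lost their call in each fit without 1 library (up to 0.098 and 0.111). Without a filter on low genes the calls of Coq2, Rnf145, Npc2, Nceh1, Apoc1 and Cyp7b1 ended too (0.0640 to 0.105).

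Beside Abcg1, Pltp, Lpl and Apoc1, and beside Lipa, Npc2 and Nceh1, stand the higher microglia and macrophage markers (18 of 18 tested), whose part in these results was not tested.

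**Figure D4:**
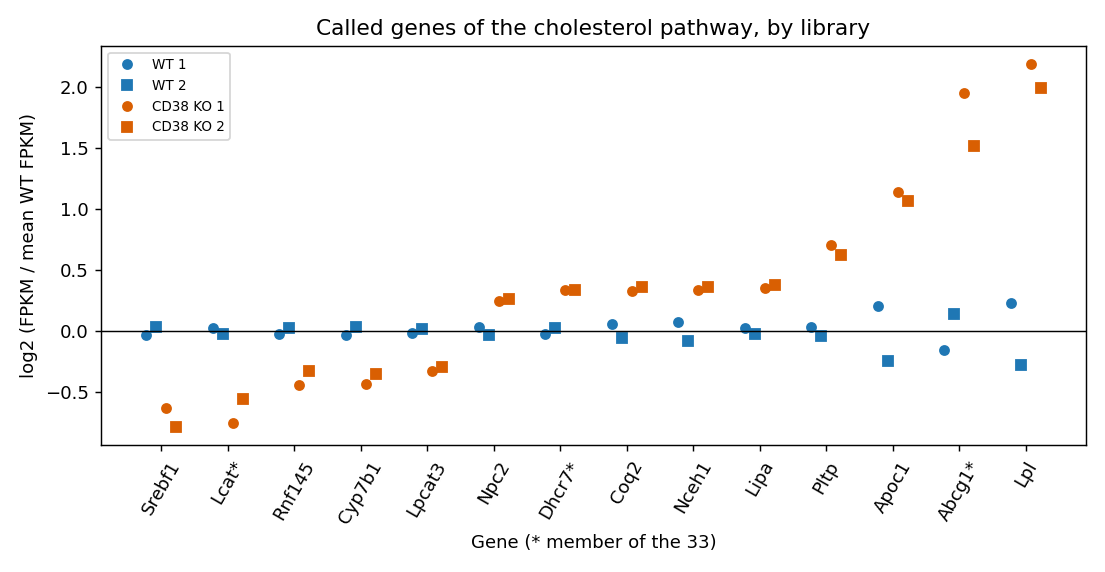
FPKM of each called gene of the 33 members (asterisk) and of the 3 further lists, as log2 of the ratio to the WT mean, WT in blue and CD38 KO in orange, replicate 1 as circles and replicate 2 as squares. The 5 lower and 9 higher genes show no overlap between genotypes, and Lpl and Abcg1 lie highest.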

How the data were processed

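RNA was measured in 2 WT and 2 CD38 KO libraries of cultured mouse cortical astrocytes, grouped by the genotype in the labels. Tools named in the submitters' processing notes are STAR 2.7.0f and Cufflinks 2.2.1, after bcl2fastq 2.17, with GRCm38 as build. The authors deposited FPKM, one value for each gene, as the column name in the file headers says. Annotation release, scaling between libraries and use of strand in counting: not given in the sources used here. GENCODE M21 on GRCm38, used for positions, held 55140 of the 55467 IDs.

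Depth was estimated from the steps of low FPKM values in 17444 genes with 1 annotated transcript above 600 bases. Below 10 fragments, 91.7% to 92.6% of values lay within 0.1 of a whole fragment. Starting the search at another value moved the estimates by 0.068% to 0.21%. They are given to 3 digits.

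The test was limma (version 3.58.1, R version 4.3.3) on log2(FPKM + 1) for genes averaging 1 FPKM or more, genotype as the only term, moderated with a trend, and adjusted over 13064 genes at 0.05. A count test was not run, since FPKM are not counts. Fold changes are ratios of mean FPKM, and changes on the log2(FPKM + 1) scale understate those of low genes. Python 3.11.15 (pandas 2.3.3, numpy 2.4.6, matplotlib 3.10.9, scipy 1.17.1) served for the rest.

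The members and lists were chosen with earlier results of these data known, so no list has a test of its own. All 33 members are accounted for, and members that were called, the 3 most abundant of each group and those below 1 FPKM had to be given by library. Of the further lists, up to 4 genes of smallest p and any other called gene are named. One gene that this rule would name is not reported here. Alternatives were 0.1 and 0.5 as the added value, no filter, a filter at 5 FPKM, quantile and median-of-ratios scaling, a replicate block, other moderation, and each library left out in turn.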

Additional observations from a re-analysis of the deposited data

How the results depend on the processing

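Over all genes, 1875 were called. The number was 742 without a filter (26654 genes tested), 1037 with the replicate number as a block, and 632 to 899 without 1 library. The labels do not say that equal numbers pair libraries, and the deviations of same-numbered libraries correlated at -0.161 over 13064 genes. A block that crosses the numbers, added after seeing the data, gave 1961 calls. Called synthesis enzymes numbered 1. Without a filter, with the replicate block and in every fit without 1 library (range 0 to 0) the number was 0. Called genes of efflux, esterification and lipoproteins numbered 2, but 0 without a filter and 1 at a filter of 5 FPKM, which removes Abcg1 from the test. Without 1 library the number was 2 in each fit. Of the further isoprenoid and sterol enzymes 1 was called, and 0 without a filter and with the replicate block, and 0 to 1 without 1 library. Of the SREBP control and sterol movement genes 5 were called, 2 without a filter, 3 with the replicate block, 3 without a trend, and 1 to 3 without 1 library. Of the further LXR, oxysterol and lipoprotein genes 5 were called, 4 without a filter (Pltp, Lpl, Lpcat3 and Ch25h), and 2 to 3 without 1 library. A fit without 1 library takes the spread of the single remaining library from the other genotype. With fewer libraries the test has fewer samples, and without a filter more genes are tested. The block ended the calls of Dhcr7 (adjusted p 0.0726), Coq2 (0.0576), Npc2 (0.0631) and Nceh1 (0.0686). Otherwise the cause was not tested.

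Direction changed only when a library was left out, and only in members that were not called. Over those fits the log2 change ran from -0.091 to 0.023 for Acat2, -0.027 to 0.15 for Hmgcs1, -0.093 to 0.050 for Mvd, -0.26 to 0.22 for Idi1, -0.064 to 0.14 for Sqle, -0.18 to 0.057 for Cyp51, -0.045 to 0.13 for Ebp, -0.073 to 0.055 for Stard4, -0.090 to 0.13 for Abca1, -0.036 to 0.054 for Nr1h2, -0.053 to 0.021 for Apoe and -0.0052 to 0.25 for Soat1. Scaling moved the median of all genes by at most 0.02 on the log2 scale. Of the values of single genes under an alternative, 543 kept direction and side of the threshold, 46 lost the call, 1 gained it and 16 changed direction. With 2 libraries a genotype, changes under about 0.2 on the log2 scale are mostly within the 95% interval of limma, whose median half-width over all genes was 0.189.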

Other observations

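Among the listed genes too low for the test were 2 oxysterol enzymes, both picked here after their values were seen. Ch25h, cholesterol hydroxylase of activated macrophages, was at 0.122 and 0.116 FPKM in WT against 0.678 and 0.649 in CD38 KO. Cyp27a1, the mitochondrial sterol hydroxylase, was at 0.453 and 0.456 FPKM in WT against 1.16 and 0.846 in CD38 KO. In both genes the CD38 KO libraries lay above the WT libraries. Groups that did not overlap, in either direction, were found in 59.9% of all tested genes, to which these 2 low genes do not belong. In limma without a filter on low genes, Ch25h was called (adjusted p = 0.0308) and Cyp27a1 was not (0.145). Cyp39a1, another oxysterol hydroxylase, was tested and not called, at 4.87, 5.13, 4.21 and 4.91 FPKM (log2 change -0.11, interval -0.35 to 0.13). Beside these values the summed markers of microglia and macrophages were 5.69 times the WT level in CD38 KO, and their part was not tested.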
